A study of Mus musculus with 8 samples.

Results

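The Kruppel-like factor (KLF) genes described here are 10 members of one mouse transcription factor family, Klf2, Klf3, Klf4, Klf6, Klf7, Klf9, Klf10, Klf11, Klf13 and Klf16. They were picked by symbol from the 43629 genes of a table of RNA-seq read counts, and all 10 were in the table. The RNA came from 8 libraries of 2 B cell lymphoma lines, #1.2 and #1.1, from Eμ-Myc mice of the C57BL/6 strain. In these mice an immunoglobulin heavy chain enhancer drives a Myc transgene in B lineage cells, so every group, controls included, carries the transgene. The 4 groups were line 1.2 with JQ1, line 1.2 with DMSO, line 1.1 with JQ1 and line 1.1 with DMSO, each with 2 libraries. JQ1, given at 250 nM for 2 h, is a small molecule that displaces BET bromodomain proteins from acetylated chromatin, and DMSO is its solvent. The cells were early passage and in culture, and 2 lines stand for this tumour type. Nothing in the labels says that both libraries of a group came from different cultures, so each p-value reflects library-to-library spread that may be technical.

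KLF proteins carry a set of zinc fingers at their C-terminal end that bind GC-rich and CACCC-type promoter elements, the same elements that the related SP proteins bind. The N-terminal ends differ and set the role of each protein. Klf2, Klf4, Klf6 and Klf7 carry activation domains, Klf3 recruits the corepressor CtBP, and Klf9, Klf10, Klf11, Klf13 and Klf16 recruit the SIN3A corepressor. In mouse lymphocytes Klf2 is known for keeping resting cells out of the cycle and for maintaining receptors of cell trafficking, and Klf4 for restraining proliferation.

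The promoters of 4 of the genes that changed, a pair that fell and a pair that rose, are shown first because KLF proteins bind GC-rich promoter elements. RefSeq windows on GRCm38.p6, 250 bases before to 50 bases after the gene start, were matched for 8 of the 10 genes, all but Klf10 and Klf16. The windows of Klf3 and Klf2, the pair with the largest falls after JQ1, lie at chr5:64803271-64803570 and chr8:72318812-72319111 on the plus strand. The windows of Klf11 and Klf9, from the genes that rose, lie at chr12:24651121-24651420 and chr19:23140976-23141275 on the plus strand. Capitals mark the GC box, GGGCGG on either strand.
Klf3: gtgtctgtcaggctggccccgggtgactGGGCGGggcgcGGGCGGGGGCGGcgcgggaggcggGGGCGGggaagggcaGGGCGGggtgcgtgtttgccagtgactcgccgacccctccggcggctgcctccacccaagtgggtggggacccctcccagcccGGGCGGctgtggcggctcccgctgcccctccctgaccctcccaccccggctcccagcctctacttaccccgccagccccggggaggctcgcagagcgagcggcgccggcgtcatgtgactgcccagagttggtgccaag
Klf2: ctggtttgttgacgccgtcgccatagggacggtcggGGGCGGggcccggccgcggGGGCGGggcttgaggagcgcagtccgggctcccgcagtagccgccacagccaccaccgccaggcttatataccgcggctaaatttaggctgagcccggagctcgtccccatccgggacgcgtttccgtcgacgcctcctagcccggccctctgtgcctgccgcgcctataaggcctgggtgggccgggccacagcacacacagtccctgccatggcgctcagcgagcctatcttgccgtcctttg
Klf11: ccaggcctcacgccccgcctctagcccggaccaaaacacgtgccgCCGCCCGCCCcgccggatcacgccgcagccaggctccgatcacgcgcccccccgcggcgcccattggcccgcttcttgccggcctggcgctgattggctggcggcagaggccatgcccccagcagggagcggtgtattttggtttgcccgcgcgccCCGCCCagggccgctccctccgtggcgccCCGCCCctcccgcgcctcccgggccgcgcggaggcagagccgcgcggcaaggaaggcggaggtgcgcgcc
Klf9: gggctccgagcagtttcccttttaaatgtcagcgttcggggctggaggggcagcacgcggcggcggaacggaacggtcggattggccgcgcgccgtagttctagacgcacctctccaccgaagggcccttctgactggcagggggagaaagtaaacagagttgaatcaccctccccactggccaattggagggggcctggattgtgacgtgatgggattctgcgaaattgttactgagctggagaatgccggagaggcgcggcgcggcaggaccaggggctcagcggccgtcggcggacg

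The Klf3 window held 6 GC boxes and the Klf2 window 2, while the Klf11 window held 4 and the Klf9 window none. Of the other windows, Klf4 held 4, Klf13 held 3, and Klf6 and Klf7 held 1 each. A GC box was found in 35.9% of 32544 RefSeq promoter windows of the same length. CACCC, also searched on both strands and counted whether or not it touched another motif, was found 5 times in the Klf3 window, 3 times in that of Klf7 and once in those of Klf2, Klf9 and Klf13, and in 57.6% of all windows. CCAAT was found in the windows of Klf6, with 4 matches, Klf9, with 3, and Klf11 and Klf13, with 2 each, against 37.4% of all windows, and TATAAA was found in none of the 8, against 13.6% of all windows. The GC content ran from 58.3% in the Klf7 window to 77.7% in the Klf11 window, and the median over all windows was 53.0%. Genes that rose and genes that fell after JQ1 did not separate by these counts, and a match is a description of the letters, not a binding site.

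Gene reads per library ran from 10347453 to 13049877, and the 2 libraries of each group differed by more than sampling noise. B lineage markers, summed as CPM (reads scaled to a common library size), were at 2970 to 3459 CPM in JQ1 libraries and 3593 to 3946 CPM in DMSO libraries. After JQ1, 1 of 10 tested B lineage markers rose and 9 fell. Over all genes tested 30.7% rose and 31.3% fell, the shares to set beside each marker count here. Of 10 T cell markers 5 were at 0 reads and 1, Cd2, was tested, and the 8 erythroid markers summed to at most 0.528 CPM. Myeloid markers, of which 3 of 10 were at 0 and 4 were tested (1 rose, 3 fell), summed to 11.2 to 14.2 CPM in JQ1 libraries and 9.11 to 11.3 CPM in DMSO libraries. Of 10 endothelial and stromal markers 6 were at 0, and Pecam1 and Cdh5 were tested and fell. The list summed to 18.8 to 24.5 CPM in JQ1 libraries and 87.4 to 98.8 CPM in DMSO libraries. Nearly all of that was Pecam1, at means of 19.5 CPM in JQ1 and 86.8 CPM in DMSO for line 1.2, and 23.2 and 91.7 CPM for line 1.1. Cdh5 averaged at most 1.47 CPM in a group, and Tek and Vwf had 3 and 14 reads in all libraries together. Klf2 and Klf4 are also expressed in endothelial cells, and the part of these markers in the results below was not tested. In bulk RNA, fewer cells of a type and less RNA per cell cannot be told apart. A noncoding locus annotated as Gm42418, which shares sequence with ribosomal RNA, stood at 1296 and 2644 CPM in the JQ1 libraries of line 1.2, against 383 and 341 CPM in its DMSO libraries. In line 1.1 it stood at 475 and 493 CPM in JQ1 libraries, against 361 and 977 CPM in DMSO libraries, and the library at 977 CPM also had the highest Klf2 level.

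Per length, Klf2, Klf13 and Klf16 were the main KLF transcripts of both lines, and Klf4, Klf3 and Klf7 were close to the floor. In RPKM (CPM per kilobase of exon), Klf2 averaged 23.8 in JQ1 and 33.3 in DMSO libraries of line 1.2, and 17.3 in JQ1 and 35.0 in DMSO libraries of line 1.1. Klf13 averaged 20.9 in JQ1 and 27.2 in DMSO libraries of line 1.2, and 21.0 in JQ1 and 27.6 in DMSO libraries of line 1.1. Klf16 averaged 14.3 in JQ1 and 10.96 in DMSO libraries of line 1.2, and 17.8 in JQ1 and 13.5 in DMSO libraries of line 1.1. Klf2 was thus the highest of the 10 in both DMSO groups and in line 1.2 with JQ1, and came behind Klf13 and Klf16 in line 1.1 with JQ1.

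Klf9 came next in every group, at 3.94 to 5.34 RPKM. Klf6, Klf10 and Klf11 followed at 0.987 to 2.79 RPKM, and their order changed between groups. Klf11 was the lowest of these 3 in both DMSO groups, while in line 1.1 with JQ1 it was the highest of them. Klf3 averaged 0.179 to 0.393 RPKM, Klf4 0.0272 to 0.258 RPKM and Klf7 0.0326 to 0.102 RPKM. Neighbours in this order whose libraries overlapped were Klf6 and Klf11, Klf11 and Klf10, and Klf4 and Klf3 in line 1.2 with JQ1, Klf16 and Klf2, and Klf4 and Klf3 in line 1.1 with JQ1, and Klf10 and Klf6, and Klf7 and Klf4 in line 1.1 with DMSO. No neighbours overlapped in line 1.2 with DMSO.

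**Figure D1:**
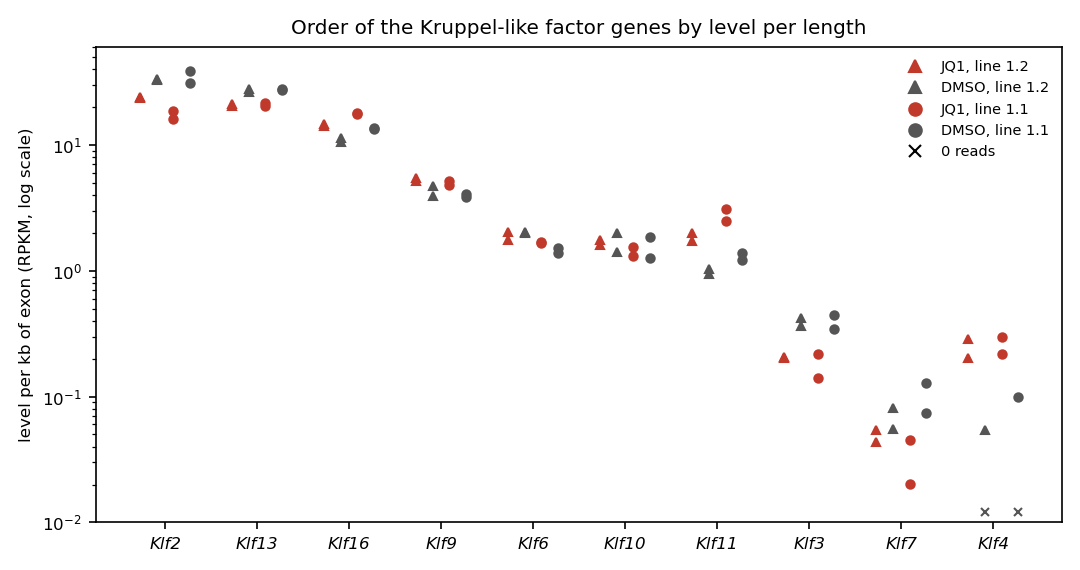
Level per kilobase of exon (RPKM, log scale) of the 10 genes in each library, ordered by their mean in DMSO. Triangles are line 1.2, circles line 1.1, red JQ1, grey DMSO, and crosses at the lower edge are libraries with 0 reads of Klf4; Klf2, Klf13 and Klf16 stand above 10 RPKM in every library.

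The 10 genes together made up 293 and 292 CPM in the JQ1 libraries of line 1.2, against 350.0 and 333 CPM in its DMSO libraries. In line 1.1 they made up 283 and 298 CPM in JQ1 libraries, against 345 and 357 CPM in DMSO libraries. The summed level was lower in every JQ1 library than in every DMSO library, with no test made on the sum. Klf13 alone held 52.8 to 60.9% of these reads, and Klf2 10.5 to 20.0%.

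Of the 10 genes, 8 had enough reads to be tested, and after JQ1, 3 of these rose, 3 fell and 2 did not pass the threshold. Klf9, Klf11 and Klf16 rose, all of the SIN3-recruiting branch. Klf2, Klf3 and Klf13 fell, one from each branch. Tests were edgeR's quasi-likelihood test on the counts with Benjamini-Hochberg adjustment over 12413 genes and a threshold of 0.05, and the effect was averaged over both lines. Over all genes tested, 30.7% rose and 31.3% fell, so the shares of the KLF genes that rose and fell are near the background. Their median change was -0.01 on the log2 scale and their median size of change 0.39, against 0.00 and 0.25 over all genes. The 8 genes had at least 19 reads in every library, so none entered the test through one condition only. Libraries of both lines stood apart by treatment for these 6 genes and for Klf4 and Klf7, while those of Klf6 and Klf10 overlapped. Klf4 and Klf7 had only 0 to 10 and 2 to 11 reads per library. The share of all genes whose libraries stand apart in this way was not computed, so this is a description and not a result about the KLF genes.

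**Figure D2:**
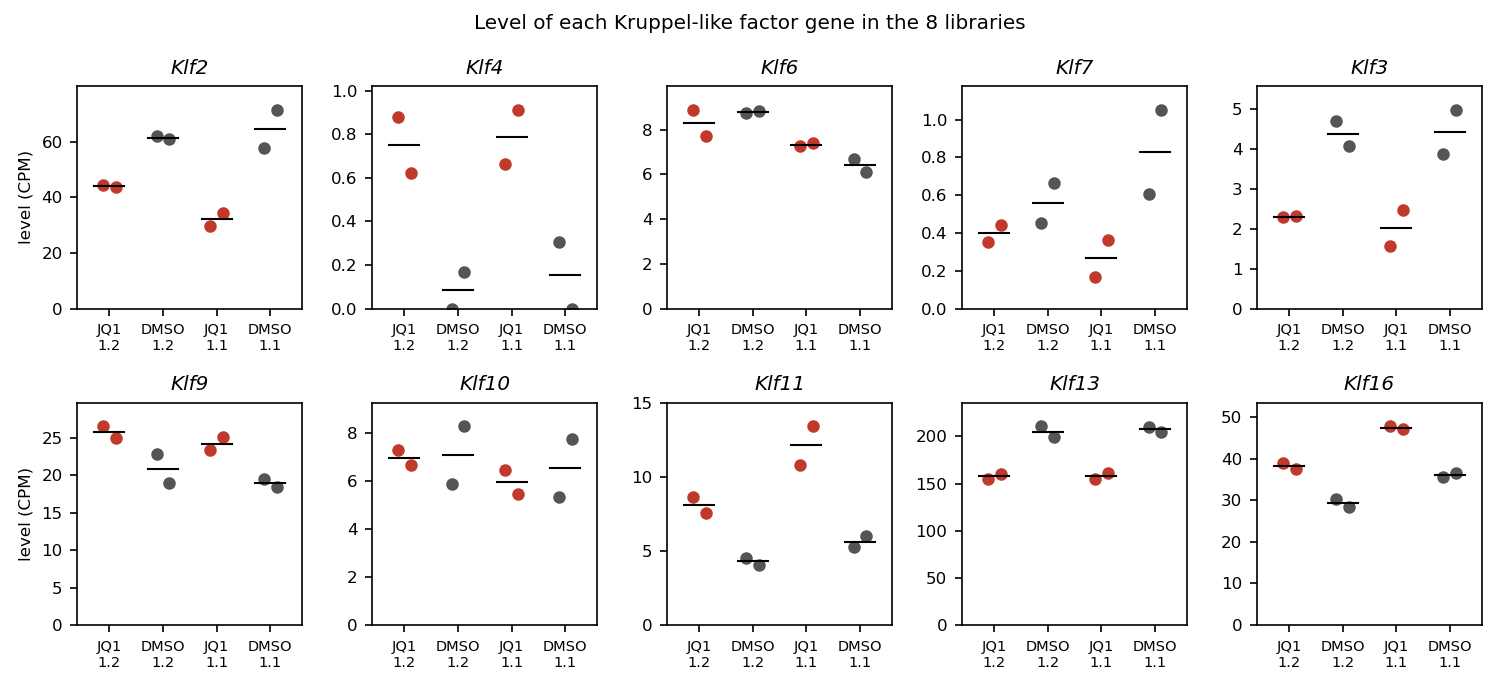
CPM of each of the 10 genes in each library, with its own linear axis from 0 in each panel. Points are libraries, bars group means, red JQ1 and grey DMSO, with line 1.2 left of line 1.1; Klf2, Klf3 and Klf13 are lower and Klf9, Klf11 and Klf16 higher in every JQ1 library than in any DMSO library.

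Among the activator-type genes, Klf2 fell in both lines. Klf2 (8:72319033-72321656, plus strand, GRCm38) had 44.5 and 43.6 CPM in the JQ1 libraries of line 1.2, against 62.0 and 60.9 CPM in its DMSO libraries. In line 1.1 it had 29.7 and 34.4 CPM in JQ1 libraries, against 57.8 and 71.4 CPM in DMSO libraries. The treatments did not overlap, and the lowest level was in line 1.1 with JQ1. Averaged over lines, the log2 change was -0.74 ± 0.061 (SE; edgeR adjusted p = 1.81e-10), with a 95% interval of -0.87 to -0.62, a level of 0.597 times that in DMSO. Of all genes tested, 9.26% fell further.

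Klf6, an activator of wide tissue range (13:5861482-5870394, plus strand), did not pass the threshold. It had 8.89 and 7.71 CPM in JQ1 and 8.76 and 8.86 CPM in DMSO libraries of line 1.2, and 7.27 and 7.38 CPM in JQ1 and 6.68 and 6.12 CPM in DMSO libraries of line 1.1. The averaged log2 change came to 0.05 ± 0.11 (SE; edgeR adjusted p = 0.701), and its 95% interval ran from -0.17 to 0.27.

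Klf4 (4:55527143-55532466, minus strand) and Klf7 (1:64029447-64122282, minus strand), a gene known from axon growth in mouse neurons, were under the filter on low counts. Klf4 had 10 and 7 reads in the JQ1 libraries of line 1.2, against 0 and 2 in DMSO, and 8 and 10 in the JQ1 libraries of line 1.1, against 4 and 0 in DMSO. Klf7 had 4 and 5 reads in JQ1 and 5 and 8 in DMSO libraries of line 1.2, and 2 and 4 in JQ1 and 8 and 11 in DMSO libraries of line 1.1. Every JQ1 library was thus above every DMSO library for Klf4, and below it for Klf7 once scaled for depth. Without the filter, edgeR's adjusted p was 2.51e-05 for Klf4 and 0.0645 for Klf7 for the averaged effect. At so few reads the fitted size of the change depends on the prior count, and no fold is given.

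Klf3, the CtBP-recruiting repressor, which in mice takes part in B cell subset formation, fell the most of the 8 genes tested. Klf3 (5:64803388-64832901, plus strand) had 2.29 and 2.31 CPM in JQ1 and 4.69 and 4.06 CPM in DMSO libraries of line 1.2. In line 1.1 it had 1.57 and 2.46 CPM in JQ1 and 3.87 and 4.97 CPM in DMSO libraries. The averaged log2 change came to -1.03 ± 0.18 (SE; edgeR adjusted p = 3.07e-05), with a 95% interval of -1.40 to -0.65, a level of 0.491 times that in DMSO. The treatments did not overlap, but these values rest on 19 to 52 reads per library. Klf8, which like Klf3 recruits CtBP, also fell, by a log2 step of 0.98 ± 0.25 (SE; edgeR adjusted p = 0.00174), with 0.440 and 0.887 CPM in JQ1 and 1.99 and 1.32 CPM in DMSO libraries of line 1.2, and 1.74 and 1.82 CPM in JQ1 and 2.73 and 2.96 CPM in DMSO libraries of line 1.1. Klf8 overlapped between treatments across lines, though not within a line, at 5 to 36 reads. Klf12, the other CtBP-recruiting gene, had 3 reads in all 8 libraries together.

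In the SIN3-recruiting branch, Klf11 rose the most, Klf9 and Klf16 rose by less, Klf13 fell and Klf10 did not pass the threshold. Klf11 and Klf10 are both known as early genes of transforming growth factor β signalling. Klf11 (12:24651274-24662789, plus strand) had 8.63 and 7.54 CPM in JQ1 and 4.51 and 4.06 CPM in DMSO libraries of line 1.2, and 10.8 and 13.4 CPM in JQ1 and 5.24 and 6.02 CPM in DMSO libraries of line 1.1. Its averaged log2 change came to 1.01 ± 0.12 (SE; edgeR adjusted p = 1.06e-07), with a 95% interval of 0.76 to 1.26, a level 2.02 times that in DMSO. Of all genes tested, 3.56% rose further.

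Klf16 (10:80567124-80577321, minus strand) had 39.0 and 37.5 CPM in JQ1 and 30.2 and 28.4 CPM in DMSO libraries of line 1.2, and 47.8 and 47.2 CPM in JQ1 and 35.5 and 36.5 CPM in DMSO libraries of line 1.1. Its averaged log2 change came to 0.39 ± 0.053 (SE; edgeR adjusted p = 6.43e-07; 95% interval 0.28 to 0.50). The treatments did not overlap, and the highest values were in line 1.1 with JQ1.

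Klf9, known as a gene induced by glucocorticoid hormone (19:23141226-23168134, plus strand), had 26.5 and 24.9 CPM in JQ1 and 22.8 and 18.9 CPM in DMSO libraries of line 1.2, and 23.3 and 25.1 CPM in JQ1 and 19.5 and 18.5 CPM in DMSO libraries of line 1.1. Its averaged log2 change came to 0.32 ± 0.071 (SE; edgeR adjusted p = 0.000328; 95% interval 0.18 to 0.47). The treatments did not overlap, and the nearest libraries were 23.3 CPM with JQ1 in line 1.1 and 22.8 CPM with DMSO in line 1.2.

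Klf13, known for driving Ccl5 in T cells (7:63886351-63938915, minus strand), had 154 and 160.5 CPM in JQ1 and 211 and 199 CPM in DMSO libraries of line 1.2, and 155 and 161 CPM in JQ1 and 210.4 and 205 CPM in DMSO libraries of line 1.1. Its averaged log2 change came to -0.39 ± 0.035 (SE; edgeR adjusted p = 1.04e-09; 95% interval -0.46 to -0.31), the smallest error of the 8 genes at 1755 to 2770 reads per library. Gm27252, on the opposite strand of Klf13, had 2 to 25 reads, and since the strand setting of the counting is not given, reads of such overlapping genes cannot be told apart. Other genes that overlap a member, at Klf3, Klf7, Klf9 and Klf13, had at most 3 reads.

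Klf10 (15:38291463-38300706, minus strand) had 7.31 and 6.65 CPM in JQ1 and 5.87 and 8.28 CPM in DMSO libraries of line 1.2, and 6.44 and 5.47 CPM in JQ1 and 5.32 and 7.74 CPM in DMSO libraries of line 1.1. In each line both JQ1 values lay between the DMSO values. Its averaged log2 change came to -0.06 ± 0.14 (SE; edgeR adjusted p = 0.706), and the 95% interval of -0.35 to 0.22 leaves out a change of the size seen for Klf11.

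**Figure D3:**
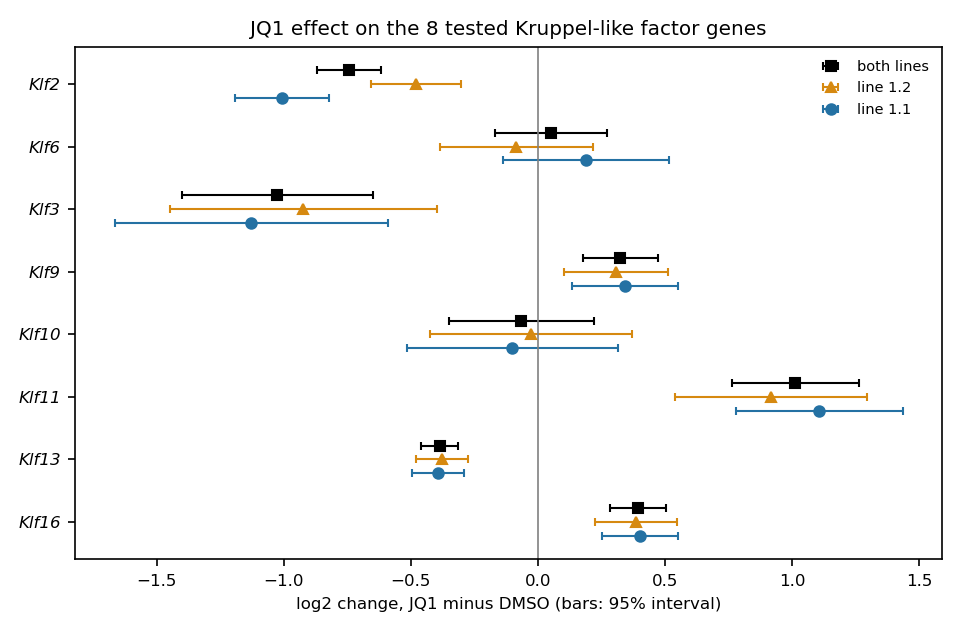
Log2 change after JQ1 (JQ1 minus DMSO) with 95% intervals for the 8 tested genes, averaged over both lines (squares), in line 1.2 (triangles) and in line 1.1 (circles). Intervals for Klf9, Klf11 and Klf16 lie above 0 and those for Klf2, Klf3 and Klf13 below it in all 3, while those for Klf6 and Klf10 cross 0.

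Within each line, 3 KLF genes rose and 3 fell by the same test. In line 1.2, 24.4% of all genes rose and 25% fell, and in line 1.1, 24.9% rose and 26.1% fell. Klf13 changed by -0.38 in line 1.2 and by -0.39 in line 1.1 on the log2 scale, and Klf16 by 0.38 in line 1.2 and by 0.40 in line 1.1. Klf11 changed by 0.92 in line 1.2 (edgeR adjusted p = 0.000202) and by 1.11 in line 1.1 (edgeR adjusted p = 2.79e-06). Klf3 changed by -0.92 in line 1.2 (edgeR adjusted p = 0.00411) and by -1.13 in line 1.1 (edgeR adjusted p = 0.00085). Klf9 changed by 0.31 in line 1.2 (edgeR adjusted p = 0.0127) and by 0.34 in line 1.1 (edgeR adjusted p = 0.00652), the weakest of the 6. The Klf9 call in line 1.2 was lost without the first JQ1 library or the second DMSO library of that line (edgeR adjusted p = 0.103 and 0.256), and the call in line 1.1 without the second JQ1 library (edgeR adjusted p = 0.0637). When Gm42418, which in line 1.2 moves with the treatment, was added as a covariate, the 3 genes called higher in line 1.2 became 0, at log2 changes of 0.43 for Klf9, 0.87 for Klf11 and 0.38 for Klf16 (edgeR adjusted p = 0.149, 0.102 and 0.0844), and its part in the result was not tested further. In that fit 2908 of all genes passed in line 1.2, against 3031 higher and 3105 lower without the covariate, and Klf2 and Klf3 stood at -0.83 and -1.44 (edgeR adjusted p = 0.000112 and 0.0347).

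Klf2 was the one KLF gene whose change differed between lines at an unadjusted p under 0.05. It changed by -0.48 ± 0.085 in line 1.2 (SE; edgeR adjusted p = 5.05e-05) and by -1.01 ± 0.089 in line 1.1 (SE; edgeR adjusted p = 1.25e-09) in log2. The difference of these changes, line 1.2 minus line 1.1, was 0.53 ± 0.12 (SE), with a 95% interval of 0.27 to 0.78 and an unadjusted p of 0.000282, but edgeR's adjusted p was 0.117. Thus 0 of 8 KLF genes passed for the difference, against 0.113% of all genes (14 genes). The share of all genes at an unadjusted p under 0.05 was not computed, so the 1 KLF gene there has no background to be set against. The size and the call of the Klf2 difference moved with single libraries. Without the first DMSO library of line 1.1 it was 0.69 (edgeR adjusted p = 4.46e-05), in a fit where the genes passing for the difference went up to 459, and without the second it was 0.38 (edgeR adjusted p = 0.124). Without the first JQ1 library of line 1.1 it was 0.42 (edgeR adjusted p = 0.789). With no filter on low counts its size was nearly the same, 0.54 (edgeR adjusted p = 0.000598), in a fit where 80 genes passed. The p-values of that fit are not comparable with those of the main fit, as described for Klf4 and Klf7. With Gm42418 as a covariate the Klf2 difference was 0.13 (edgeR adjusted p = 0.912). For the other 7 genes edgeR's adjusted p for the difference was 0.780 to 0.985. The intervals were wide for Klf3, at -0.57 to 0.97, and narrow for Klf13, at -0.13 to 0.16.

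Between the lines, 1 KLF gene was lower in line 1.2 than in line 1.1 in DMSO, and none higher, against 3.17% of all genes lower and 3.59% higher. This was Klf16, at 30.2 and 28.4 CPM in line 1.2 and 35.5 and 36.5 CPM in line 1.1, a log2 difference of -0.30 ± 0.078 (SE; edgeR adjusted p = 0.0207). The call was lost without the first or the second DMSO library of line 1.2 (edgeR adjusted p = 0.0584 and 0.229). Klf6 was at 8.76 and 8.86 CPM in line 1.2 and 6.68 and 6.12 CPM in line 1.1, a difference of 0.45 ± 0.15 that did not pass (SE; edgeR adjusted p = 0.0745). Klf2 differed by -0.06 ± 0.080 in DMSO (SE; edgeR adjusted p = 0.716), and without the first DMSO library of line 1.1 by -0.22 (edgeR adjusted p = 0.0441), where 1318 genes passed, but without the second by 0.08 (edgeR adjusted p = 0.556).

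Under JQ1, 1 KLF gene was higher and 2 were lower in line 1.2 than in line 1.1, against 3.49% and 2.92% of all genes. Klf2 was higher, at 44.5 and 43.6 CPM in line 1.2 and 29.7 and 34.4 CPM in line 1.1 (log2 difference 0.46 ± 0.094, SE; edgeR adjusted p = 0.0026). Klf11, at 8.63 and 7.54 CPM in line 1.2 and 10.8 and 13.4 CPM in line 1.1, was lower, with a log2 difference of -0.58 ± 0.15 (SE; edgeR adjusted p = 0.0181). Klf16 was lower as well, with a log2 difference of -0.31 ± 0.072 (SE; edgeR adjusted p = 0.00747), close to its difference in DMSO. The Klf2 call was lost without the first JQ1 library of line 1.1 or of line 1.2 (edgeR adjusted p = 0.13 and 0.0527), the Klf16 call without any one of the 4 JQ1 libraries (edgeR adjusted p from 0.0531 to 0.093), and the Klf11 call without any of them except the first JQ1 library of line 1.1 (edgeR adjusted p from 0.0615 to 0.247). With Gm42418 as a covariate none of the 3 passed, Klf2 being at 0.18 (edgeR adjusted p = 0.6), and with the DESeq2 test Klf11 and Klf16 did not pass (DESeq2 adjusted p = 0.243 and 0.114).

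Of the 16 other KLF and SP genes, 6 were tested and 8 had 0 reads. Of the 6 tested, 2 rose, 2 fell and 2 did not pass the threshold, near the shares of 30.7% and 31.3% over all genes. The median of the 6 changes was -0.05 in log2. Sp4, a zinc finger activator that binds GC boxes, rose by a log2 change of 1.06 ± 0.062 (SE; edgeR adjusted p = 2.7e-13), with means of 43.5 CPM in JQ1 and 20.1 CPM in DMSO libraries of line 1.2 and of 43.1 CPM in JQ1 and 21.5 CPM in DMSO libraries of line 1.1. Its change was about as large as that of Klf11. Sp2 rose by 0.25 ± 0.063 (SE; edgeR adjusted p = 0.00143), and Sp9 changed by -0.49 ± 0.21 at 17 to 35 reads (SE; edgeR adjusted p = 0.0461). Sp1 and Sp3, the widely expressed members, changed by -0.02 and -0.08 and did not pass (edgeR adjusted p = 0.66 and 0.0734). Klf1 had 2 to 6 reads per library.

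Of 8 tested genes among 13 listed as known targets of KLF proteins, 1 rose and 5 fell, against shares of 30.7% and 31.3% over all genes, and 5 of the 13 had 0 reads. Their median change was -0.64 in log2, against 0.00 over all genes. Thbd, the thrombomodulin gene that Klf2 and Klf4 activate in endothelium, averaged 6.89 CPM in JQ1 and 102 CPM in DMSO libraries of line 1.2 and 3.49 CPM in JQ1 and 87.6 CPM in DMSO libraries of line 1.1, a log2 change of -4.27 ± 0.081 (SE; edgeR adjusted p = 1.02e-22). S1pr1, the egress receptor that Klf2 maintains in mouse T cells, averaged 11.8 CPM in JQ1 and 39.8 CPM in DMSO libraries of line 1.2 and 9.13 CPM in JQ1 and 29.7 CPM in DMSO libraries of line 1.1, a log2 change of -1.72 ± 0.076 (SE; edgeR adjusted p = 1.12e-15). Smad7, chosen after its values were seen as the one that rose, changed by 0.37 ± 0.057 (SE; edgeR adjusted p = 5.17e-06). The list was drawn up with results of these data known, and whether any of these changes follow from a KLF protein was not tested.

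Of 15 tested upstream regulators of KLF genes, 7 rose and 4 fell, against the same shares over all genes of 30.7% and 31.3%, and the median change was 0.08 in log2. Mef2c, whose product in mouse and human endothelium works downstream of the kinase Mapk7 and upstream of Klf2, averaged 43.9 CPM in JQ1 and 110.6 CPM in DMSO libraries of line 1.2 and 36.7 CPM in JQ1 and 106 CPM in DMSO libraries of line 1.1, a log2 change of -1.43 ± 0.044 (SE; edgeR adjusted p = 1.39e-18). The transforming growth factor β receptor genes moved apart, Tgfbr2 by -0.92 ± 0.049 and Tgfbr1 by 0.87 ± 0.050 (SE; edgeR adjusted p = 5.23e-14 and 2.07e-13). Foxo3, a forkhead factor, rose by 0.79 ± 0.047 (SE; edgeR adjusted p = 3.85e-13).

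Of 19 tested cofactors and ubiquitin ligases of KLF proteins, 7 rose and 7 fell, near the shares of 30.7% and 31.3% over all genes, and the median change was 0.08 in log2. Smurf1, a ubiquitin ligase, rose by 0.77 ± 0.067 (SE; edgeR adjusted p = 4.04e-10) and the histone deacetylase gene Hdac1 by 0.30 ± 0.038 (SE; edgeR adjusted p = 2.7e-07). Kat2a, an acetyltransferase gene, changed by -0.29 ± 0.036 (SE; edgeR adjusted p = 1.65e-07).

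Of 21 tested quiescence genes, 12 rose and 4 fell, against shares of 30.7% and 31.3% over all genes, and the median change was 0.17 in log2. The antiproliferative genes of the BTG and TOB family rose, Tob1 by 2.16 ± 0.059, Btg1 by 1.03 ± 0.040 and Btg2 by 0.78 ± 0.037 (SE; edgeR adjusted p = 1.14e-19, 9.88e-17 and 5.63e-15). Tob1 averaged 71.4 CPM in JQ1 and 16.7 CPM in DMSO libraries of line 1.2, and 70.5 CPM in JQ1 and 15.2 CPM in DMSO libraries of line 1.1. Foxp1, which in mice keeps naive T cells quiescent, changed by -0.70 ± 0.036 (SE; edgeR adjusted p = 2.21e-14). Klf2 itself, which was not placed in this list, was thus lower while most of the listed genes that passed were higher. Lists overlap in a few genes, and none was compared with the rest by a test.

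**Figure D4:**
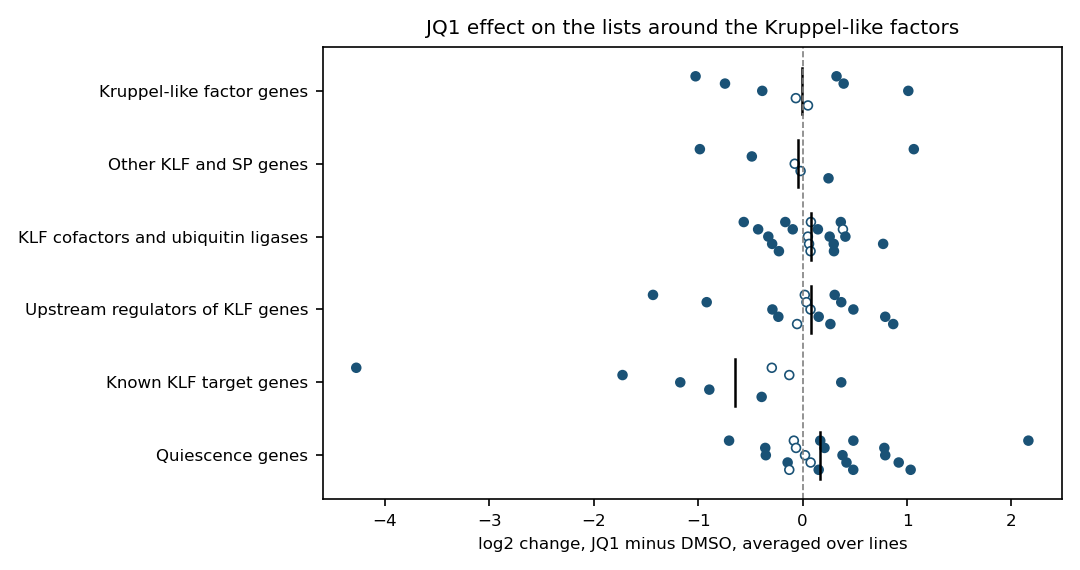
Log2 change after JQ1 averaged over both lines for each tested gene of the KLF family set and of 5 related lists. Filled points passed edgeR's adjusted threshold, black bars are list medians and the dashed line is the median of all genes; the target list has the lowest median, -0.64, and the KLF set lies on both sides of 0.

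The genes with the level profile nearest to Klf11 over the 8 libraries were Etv5, Cpt1a and Ell2, at root mean square distances of 0.0929, 0.155 and 0.161 log2 units, where the SD of Klf11 itself was 0.597. Etv5 encodes an ETS factor, Cpt1a the mitochondrial carnitine palmitoyltransferase and Ell2 an elongation factor, and their averaged log2 changes were 1.07, 1.08 and 1.03. Nearest to Klf3 were Ssh1, Kctd1 and Stambp, at distances of 0.0942, 0.118 and 0.118, with averaged log2 changes of -0.95, -0.90 and -0.93. The treatment shapes most of each profile, so likeness here is a likeness of the JQ1 change.

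Most of the KLF mRNAs have long 3′ untranslated regions, but not Klf2, and that of Klf4, at 982 bases, was close to the median. In the annotation, 9 of the 10 had a 3′ untranslated region longer than the median of 968 bases over 10085 tested genes, from 737 bases in Klf2 to 6266 bases in Klf7. The letters ATTTA, an element known from short-lived mRNAs and searched on the sense strand, occurred 1 time in Klf2 and Klf4, 3 times in Klf13, 4 times in Klf10, Klf11 and Klf16, 7 times in Klf3 and Klf6, 8 times in Klf9 and 18 times in Klf7. Thus 8 of the 10 held it at least 2 times, against 46.4% of the tested genes. Longer regions have more room for a match. Per kilobase the matches ran from 0.582 in Klf13 to 2.87 in Klf7. No value per kilobase was made for all genes, so the share does not show more matches than length gives. The genes spanned 2.62 kb in Klf2 to 92.8 kb in Klf7, and 6 of 10 were under the median of 18.1 kb, a share near that of any genes. Genes that rose and genes that fell did not separate by these features: Klf2, with 1 match, and Klf3, with 7, both fell.

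Around the 6 KLF genes that changed, the nearest tested gene on either side moved the same way in 5 of 12 cases. It moved the other way in 4 and did not pass in 3. All of the neighbours that passed rose except Tlr1, whether the KLF gene itself rose or fell. Over all genes 30.7% rose and 31.3% fell, and these few neighbours were not tested against those shares. Beside Klf3, Tlr1, 91.8 kb away, changed by -2.44 on the log2 scale, and Tbc1d1, 452 kb away, by 0.22. Beside Klf2, which fell, Eps15l1, 19.3 kb away, rose by 0.42. Beside Klf11, Rrm2, 45.5 kb away, rose by 0.41.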

How the data were processed

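The authors deposited a table of read counts per Ensembl gene, unnormalised whole numbers. Per the submitters' processing notes, it was made with FastQC, cutadapt 1.7, TopHat, Bowtie2, HTSeq and limma on GRCm38 (mm10). Other versions, the annotation release and the strand setting: not given in the sources used here. Per the labels' protocols, libraries came from column-extracted RNA and a TruSeq RNA kit. The 5 HTSeq summary lines were left out, among them reads assigned to no gene (12.3 to 14.4%) and ambiguous reads (1.54 to 1.67%).

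Genes with enough reads (filterByExpr, minimum count 10, minimum total 15), 12413 in number, were tested two-sided with edgeR 4.0.16 in R 4.3.3, with TMM scaling and 4 group means over 8 libraries, which left 4 residual degrees of freedom. CPM is per TMM-scaled library size, and RPKM uses GENCODE M21 exon lengths, the source of the coordinates. The SE comes from the F statistic. The 95% intervals use 23.6 degrees of freedom, the 4 residual ones plus those that edgeR draws from the spread of all genes. The method was tested on simulated data.

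Members and lists were chosen with earlier results of these data known. All members were described, with all tested KLF and SP genes and, of each other list, up to 4 genes of smallest p and at least 1 CPM; a few of these are not reported here. Nearest profiles were sought among named genes of at least 5 CPM. Descriptions of 3′ untranslated regions and neighbours were added after values were seen. Alternatives were other scalings, filters, thresholds and designs, limma-voom (limma 3.58.1), DESeq2 1.42.0 and leaving out each library. A planned comparison of the proteins was not made.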

Additional observations from a re-analysis of the deposited data

How the results depend on the processing

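The 6 KLF calls for the averaged JQ1 effect kept their direction and passed in each of the 8 fits that left out 1 library, and under every other alternative with 2 exceptions. Against a fold change of 1.5, Klf2, Klf3 and Klf11 passed and the count higher was 1, and the stricter filter of 5 CPM in at least 2 libraries left Klf3 out of the test. The filter kept more genes where a library was left out, so the counts were then 4 higher and 3 to 4 lower. The added gene higher was Klf4, which enters only through its reads in JQ1 libraries, so its call there is no support. The added gene lower was Klf7, which enters through its reads in DMSO libraries, so its call is no support either. No called KLF gene changed sign under any alternative. Against a fold of 1.5, the counts higher and lower were 0 and 0 in line 1.2, 1 and 1 in line 1.1, 0 lower between lines in DMSO, and 0 higher and 0 lower between lines under JQ1. With the Gm42418 level as a covariate, the count higher was 0 in line 1.2, and between lines under JQ1 it was 0 higher and 0 lower. With the DESeq2 test the count lower between lines was 0 in DMSO and 0 under JQ1, and Klf9 did not pass in line 1.2 or line 1.1 (DESeq2 adjusted p = 0.0982 and 0.0564). At a threshold of 0.01 the counts lower were 0 in DMSO and 1 under JQ1, and with only the 4 libraries compared it was 0 in DMSO. The count for the difference of effects was 1 with no filter, a fit whose p-values are not comparable with those of the main fit. Leaving out 1 library at a time gave 0 to 1 higher for the difference of effects, 0 to 2 lower between lines in DMSO, and 0 to 1 higher and 0 to 2 lower under JQ1. The causes were not tested, beyond the smaller samples that leaving libraries out gives.

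Deviations of libraries with the same replicate number correlated at -0.0603 to 0.0535 over 9382 genes. Over these genes as a whole the numbers thus showed little pairing, and such a correlation cannot show whether some genes are paired. With a replicate block, 3 KLF genes rose and 3 fell in the averaged effect, the Klf2 difference between lines was 0.53 (edgeR adjusted p = 0.0511), and 26 genes in all passed for that difference, against 14 without the block. Depth limits Klf4, Klf7 and Klf3 most, at 0 to 10, 2 to 11 and 19 to 52 reads per library.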
